A study of Arabidopsis thaliana with 4 samples.

Results

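The later response of wild-type Arabidopsis thaliana to gamma-rays was measured on 1 of the 4 arrays of the series, chosen by its label. On it, RNA of wild-type plants of the ecotype Nossen taken 12 h after 100 Gy, given at 300 Gy/h, was set against RNA of non-irradiated wild-type plants of that ecotype. All plants were 4 weeks old and grown on solid MS medium, and none on this array carried a mutation or transgene. The other 3 arrays compared wild type 6 h after the same dose, the mutant fas1-2 and the mutant fas2-2 (affected in subunits of chromatin assembly factor 1, p150 in the first and p60 in the second), each with wild type. Tissue is named as rosette leaves in the sample labels and as seedlings without roots in the design text. The irradiated RNA carried the red dye Cy5 and the control RNA the green dye Cy3, with no dye swap. The labels do not say how many plants were pooled, when the non-irradiated plants were taken, or whether arrays shared a control RNA. There was 1 array of the 12 h condition and no replicate, so the values below are a description and no difference was tested.

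Gamma-rays break both strands of DNA. In plants the kinase ATM senses such breaks and acts through the transcription factor SOG1, which turns on repair genes and inhibitors of cyclin-dependent kinases and leads to the repression of genes of cell division. Damaged meristem cells stop dividing or die, while leaf cells, most of which no longer divide, can go on with extra rounds of DNA replication without mitosis.

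Each value is a log2 ratio of irradiated over non-irradiated RNA, so that 1 means 2 times as much RNA after irradiation. The deposited ratios were read as log10 of red over green, the scale of the scanner software. Neither base nor sign is stated in the labels, so fold sizes and directions rest on that reading. The 9253 genes with a probe of a single gene name had a median of 0.00 at 12 h, and the middle 50% of them lay between -0.11 and 0.12. Spots that repeat a transcript on this array (48 transcripts, 99 spots) differed with a pooled SD of 0.269 and a median SD of 0.111, which measures spot-to-spot error alone. Only ratios were used, so the level of a gene in leaf and its signal over background could not be judged, nor could the tissue be checked against its markers. In whole tissue, fewer cells of a type and less RNA per cell cannot be told apart.

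Most genes stood close to control 12 h after irradiation. Of the 9253 genes, 8729 (94.3%) lay within 1.5-fold of it. At least 2-fold higher were 84 genes, 0.908% of those measured, and at least 2-fold lower were 69 genes, 0.746%. At least 4-fold from control were 10 genes above it and 6 below it. Of the 1300 genes that carry a symbol and not only a locus number, 14 were among the higher genes and 18 among the lower ones. Those described below are shown in the plot of symbol-bearing genes on the 4 arrays. At 6 h, by the same rule, 1.88% of the 9253 genes were higher and 1.01% lower, or 2.89% either way, against 1.65% either way at 12 h. Ratios above 0 made up 51.1% of genes at 12 h and 50.1% at 6 h, and ratios below 0 made up 48.8% at 12 h and 49.7% at 6 h.

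**Figure D1:**
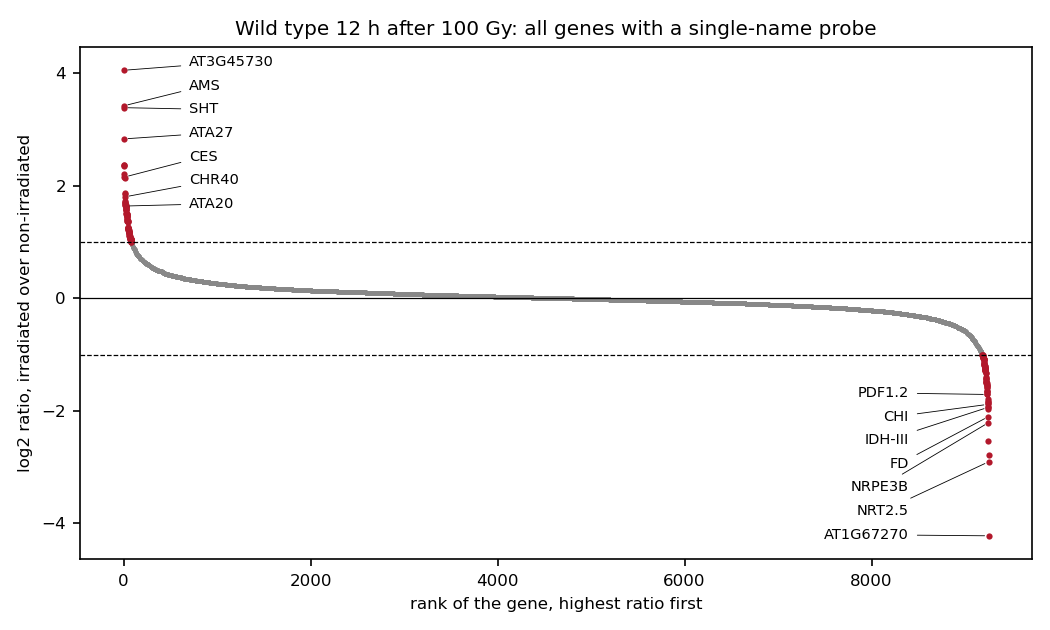
Log2 ratio of irradiated (12 h after 100 Gy) over non-irradiated wild type for each of the 9253 genes, ordered by rank with the highest first; dashed lines mark 2-fold and red points lie at or beyond them. The curve is flat over most ranks, with 84 genes at or above the upper line, 69 at or below the lower one, and AT3G45730 (4.05) and AT1G67270 (-4.22) at its ends.

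The highest genes with a known role were genes of the anther. The tapetum is the innermost layer of the anther wall. It feeds the developing pollen and supplies the material of the pollen wall. AMS (AT2G16910), a bHLH transcription factor that tapetum development requires, ranked 2 of all genes at 3.42, which is 10.7-fold above control. It stood at 1.73 on the 6 h array, -1.54 in fas1-2 and exactly 0 in fas2-2. SHT (AT2G19070), the spermidine hydroxycinnamoyl transferase that makes polyamine conjugates of the pollen coat, ranked 3 at 3.39, or 10.5-fold above control. On the other arrays SHT was at -1.11 at 6 h, exactly 0 in fas1-2 and 0.00 in fas2-2. ATA27 (AT1G75940, BETA GLUCOSIDASE 20), first isolated from anthers, ranked 4 at 2.83, against -0.37 at 6 h, -0.62 in fas1-2 and -1.27 in fas2-2. ATA20 (AT3G15400), another anther gene, ranked 21 at 1.64, against -0.32 at 6 h, -0.94 in fas1-2 and -0.69 in fas2-2. With exact zeros taken as values, each of these 4 genes was highest on the 12 h array, and AMS alone of them was above 0 at 6 h. Whether the exact 0 of AMS in fas2-2 and of SHT in fas1-2 stands for a ratio that was not measured is unknown.

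The list of tapetum and pollen wall genes held 29 genes of the reference annotation, of which 6 were measured. At 12 h, 4 of the 6 were at least 2-fold higher, 0 were at least 2-fold lower, and the median was 2.24, beside 0.908% of all genes at least 2-fold higher and a median of 0.00. At 6 h the median of the 6 was -0.35. The list is known to be high on this array from earlier work with these data, so its count is no independent evidence of direction. SWEET8 (AT5G40260, RUPTURED POLLEN GRAIN1), a sugar transporter that pollen development requires, stood at 0.87, against -0.09 at 6 h. SPL (AT4G27330, SPOROCYTELESS), the regulator that starts anther cell differentiation, stood at -0.02, against -0.42 at 6 h. ACT12 (AT3G46520), an actin expressed in pollen, stood at 1.02, against 0.29 at 6 h. ACT12 is not on the list and was chosen after its value was seen, so it does not show that pollen genes as a group were higher. Of the 14 floral organ identity genes in the reference, 0 had a named probe, so the presence of flower tissue could not be read from them and its part in the result was not tested. Markers of root, PYK10, EXPA18 and EXPA7, lay between 0.03 and 0.13 at 12 h.

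Other symbol-bearing genes were at least 2-fold higher at 12 h. CES (AT1G25330), a bHLH factor of brassinosteroid response and of the reproductive tract, stood at 2.16, which is 4.46-fold above control, against -0.28 at 6 h. CHR40 (AT3G24340), an SNF2 chromatin remodeller of RNA-directed DNA methylation, stood at 1.80, against 0.73 at 6 h, 0.72 in fas1-2 and exactly 0 in fas2-2. GILT (AT4G12960), a thiol reductase, stood at 1.58, against -1.34 at 6 h. Serine carboxypeptidase-like genes gave 2 of the 14, SCPL43 (1.46, against 0.02 at 6 h) and scpl31 (1.12, against -0.64 at 6 h). The 22 measured genes of that family had a median of 0.05, with 13 above 0 and 0 at least 2-fold lower. TBL30, of a family that acetylates wall polymers, stood at 1.11, and the transcription factor bZIP58 was 2.14-fold above control.

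AT3G45730, for which the sources used here give no role, was the highest gene of all at 4.05, or 16.6-fold above control. It stood at 4.62 at 6 h, 2.06 in fas1-2 and 1.33 in fas2-2, above 0 on every array. Genes known only by locus number made up 23 of the 30 highest. AT5G58400 (2.37, against 0.60 at 6 h), AT5G52160 (2.37, against 1.22), AT5G09480 (2.35, against 0.60) and AT1G51130 (2.14, against 2.37) were each more than 4-fold above control at 12 h, as was AT5G62080 (4.60-fold, with a log2 ratio of 1.77 at 6 h). AT1G66850 stood at 1.85, AT2G03740 at 1.65, AT3G53980 at 1.63 and AT5G44630 at 1.63, and all 4 were below 0 at 6 h (-0.45, -1.01, -0.18 and -0.59). AT1G23000 (1.70 at 12 h, 1.71 at 6 h) and AT1G20970 (1.69 at 12 h, 1.53 at 6 h) had nearly the same ratio on both arrays. AT2G37240 (1.58 at 12 h, 2.22 at 6 h), AT4G27290 (1.51 at 12 h, 1.91 at 6 h) and AT1G10050 (1.58 at 12 h, 2.05 at 6 h) were also at least 2-fold above control at both times, with the larger ratio at 6 h.

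**Figure D2:**
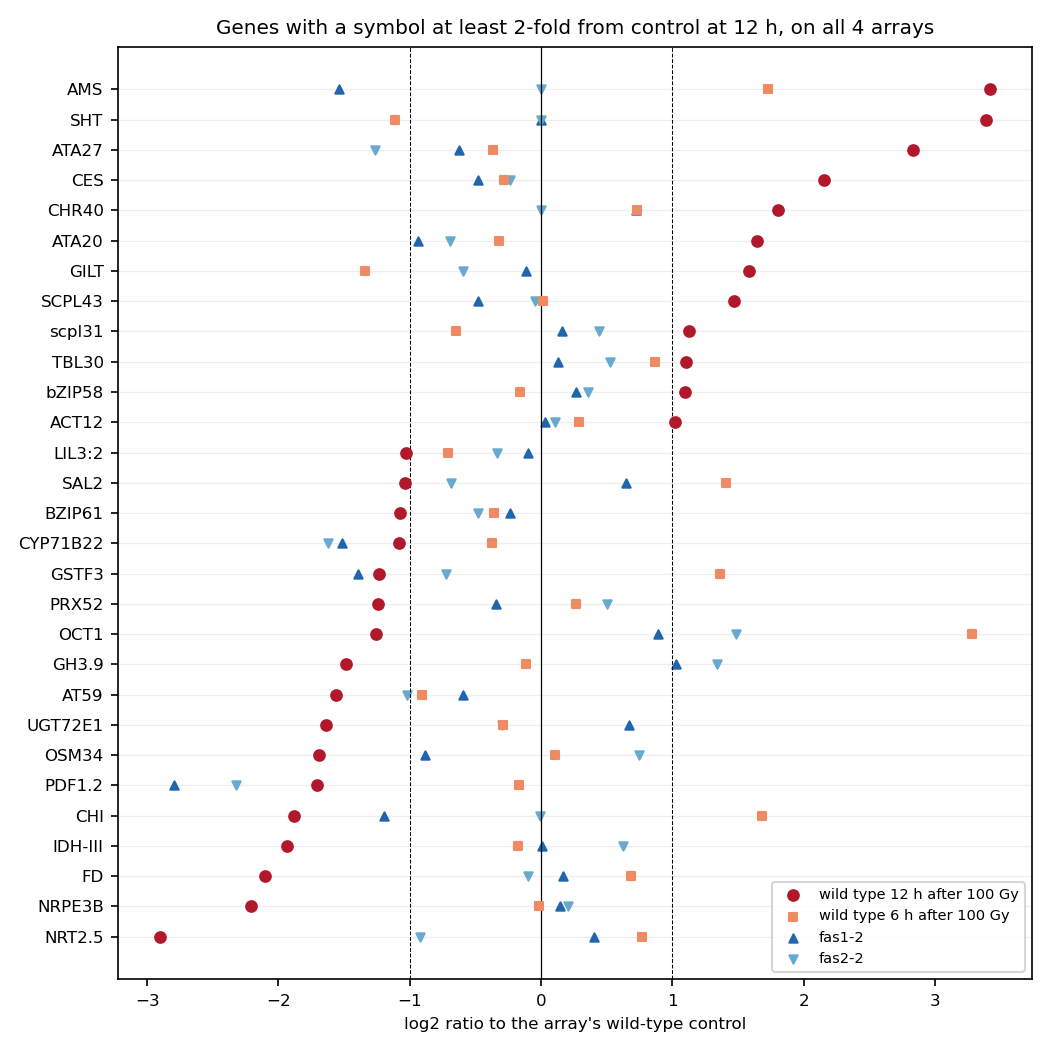
Log2 ratio to the array's wild-type control for the symbol-bearing genes described here that were at least 2-fold from control at 12 h, with 1 point per array: wild type 12 h after 100 Gy, wild type 6 h after 100 Gy, fas1-2 and fas2-2. AMS, SHT, ATA27, CES and ATA20 have their 12 h point to the right of all others, while OCT1 (-1.26 at 12 h, 3.28 at 6 h) and CHI (-1.88, 1.68) lie on opposite sides of 0 at the 2 times.

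Among the lowest genes with a symbol were a nitrate transporter, a polymerase subunit and a flowering regulator. NRT2.5 (AT1G12940), a high-affinity nitrate transporter known from nitrogen-starved plants, stood at -2.90, which is 7.48-fold below control. It was at 0.77 at 6 h, 0.40 in fas1-2 and -0.92 in fas2-2. NRPE3B (AT2G15400), a subunit of the plant RNA polymerase V of RNA-directed DNA methylation, stood at -2.21, against -0.01 at 6 h, 0.15 in fas1-2 and 0.21 in fas2-2. FD (AT4G35900), the bZIP partner of the flowering signal FT at the shoot apex, stood at -2.10, against 0.68 at 6 h. IDH-III (AT4G35650), an isocitrate dehydrogenase, stood at -1.94, against -0.18 at 6 h. These 4 genes were below -1 on the 12 h array alone of the 4.

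Several other symbol-bearing genes stood at least 2-fold lower at 12 h. CHI (AT2G43570), a chitinase, stood at -1.88, against 1.68 at 6 h, -1.19 in fas1-2 and -0.01 in fas2-2. PDF1.2 (AT5G44420), a plant defensin that responds to jasmonate together with ethylene, stood at -1.71, against -0.17 at 6 h, -2.79 in fas1-2 and -2.33 in fas2-2. PDF1.2 was the 1 low gene of 3 measured on the jasmonate and ethylene list, whose other members, the thionin gene THI2.1 (0.23) and the ethylene regulator EIN3 (0.00), were near control, with a list median of 0.00. Of the 2 measured genes of salicylate and pathogen defence, CHI was at least 2-fold lower and WRKY53 stood at -0.33. OSM34 (AT4G11650), an osmotin, stood at -1.69, against 0.11 at 6 h. The peroxidase gene PRX52 (AT5G05340) stood at -1.24, against 0.26 at 6 h. GSTF3 (AT2G02930), a glutathione transferase, stood at -1.23, against 1.36 at 6 h. OCT1 (AT1G73220), a transporter of organic cations and carnitine, stood at -1.26, against 3.28 at 6 h. UGT72E1 (AT3G50740), which glycosylates phenylpropanoids, stood at -1.64, against -0.29 at 6 h. CHI, GSTF3 and OCT1 were thus more than 2-fold above control on the 6 h array and more than 2-fold below it at 12 h.

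GH3.9 (AT2G47750), listed as an enzyme that conjugates auxin, stood at -1.49 at 12 h, against -0.11 at 6 h, 1.03 in fas1-2 and 1.34 in fas2-2. AT59 (AT1G14420), a pectate lyase, stood at -1.56, with -0.90 at 6 h, -0.60 in fas1-2 and -1.02 in fas2-2, so it was below 0 on every array. CYP71B22 (-1.08), BZIP61 (-1.07), SAL2 (-1.03) and LIL3:2 (-1.03) lay just past 2-fold. Of these, SAL2 stood at 1.41 at 6 h, and the other 3 were below 0 at both times. AT1G67270, which carries no role here, was the lowest gene at -4.22, or 18.6-fold below control, against -0.42 at 6 h, -0.79 in fas1-2 and -0.34 in fas2-2. AT5G50830 (-2.79, against -1.11 at 6 h) and AT4G25790 (-2.53, against 0.71 at 6 h) were the other locus-numbered genes at least 4-fold below control.

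The low genes without a symbol differed in where else they stood low. AT5G62280 was low on all 4 arrays, at -1.48 at 12 h, -1.26 at 6 h, -1.32 in fas1-2 and -1.61 in fas2-2. AT4G11290 was low after irradiation at both times, at -1.79 at 12 h and -1.63 at 6 h. AT4G31100 stood 2.84-fold below control at 12 h and was listed at exactly 0 on the other 3 arrays. Whether a deposited 0 stands for a ratio that was not measured is not given in the sources used here. A larger group stood above control at 6 h. AT3G28510 was at -1.66 at 12 h, against 3.08 at 6 h, the widest gap between the times of any gene. AT2G25510 stood at -1.55 at 12 h and just past 2-fold above control at 6 h. AT2G39210 (-1.43, against 1.31 at 6 h), AT4G16260 (-1.83, against 0.89) and AT5G40720 (-1.97, against 0.74) lay on opposite sides of control in the same way.

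Genes of the DNA damage response were thinly covered. Of 28 genes on the list of DNA damage signalling, 1 was measured, the checkpoint gene RAD9, at 0.42 (6 h, -0.02). Of 67 genes on the repair list, 14 were measured. Of these 14, 0 were at least 2-fold from control in either direction at 12 h, beside 1.65% of all genes. Their median was 0.12, with 9 of 14 above 0, beside 51.1% of all genes. The topoisomerase TOP3A (0.43), the uracil glycosylase UNG (0.37), the DNA translocase RAD5 (0.32), the translesion polymerase POLH (0.31) and the end-joining ligase ATLIG4 (0.28) stood highest. RECQSIM, a helicase of the RecQ family, was lowest at -0.97, against -0.08 at 6 h. RECQSIM was the single measured gene of the repair list whose distance from control exceeded 3 times the spot SD. Both lists were matched by symbol or synonym, so genes of these roles known here only by locus number may be missing from them.

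Genes of cell division stood close to control at 12 h, where several had been low at 6 h. The 9 measured genes of mitosis and cytokinesis had a median of -0.07 at 12 h and -0.64 at 6 h. At 12 h 6 of the 9 lay below 0, beside 48.8% of all genes, and 0 were at least 2-fold lower, beside 0.746%. At 6 h, 9 of the 9 lay below 0, beside 49.7% of all genes. AUR2, an Aurora kinase, stood at -0.57, against -1.42 at 6 h, and KINESIN-12B, a motor of the phragmoplast, at -0.44, against -1.44 at 6 h. ATSMC2, a condensin subunit, stood at 0.12, against -1.06 at 6 h. TOPII, the topoisomerase that untangles sister DNA, stood at 0.03, against -1.91 at 6 h. The replication genes PRL, which encodes the helicase subunit MCM7, and ICU2, which encodes a subunit of polymerase alpha, stood at -0.02 and 0.17 at 12 h, against -0.49 and -0.51 at 6 h. All of these genes were nearer to 0 at 12 h than at 6 h, a difference between single arrays that was not tested.

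The 7 histone genes with a histone symbol had a median of -0.22 at 12 h, against -0.52 at 6 h. At 12 h 6 of the 7 lay below 0, beside 48.8% of all genes. The H2B genes HTB2 (-0.68), HTB4 (-0.36), HTB11 (-0.25) and HTB1 (-0.22) were the lowest. The linker histone HIS1-3 was the exception at 0.24, against -0.23 at 6 h. SIM (AT5G04470), which blocks cyclin-dependent kinases and so favours replication without division, stood at 0.87, against 1.17 at 6 h. TRY, a repressor of trichome fate on the same list, stood at -0.14. The tubulin genes, whose products form microtubules, were above 0 in 11 of 11 cases, beside 51.1% of all genes. Values ran from 0.02 (TUB7) to 0.27 (TUB1), and all but TUB1 lay within the spot SD of 0.269. As members of a family their probes may share signal, so the count is not one of independent genes. The 12 h median was 0.10, against a 6 h median of -0.26 with 9 of 11 below 0, beside 49.7% of all genes.

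**Figure D3:**
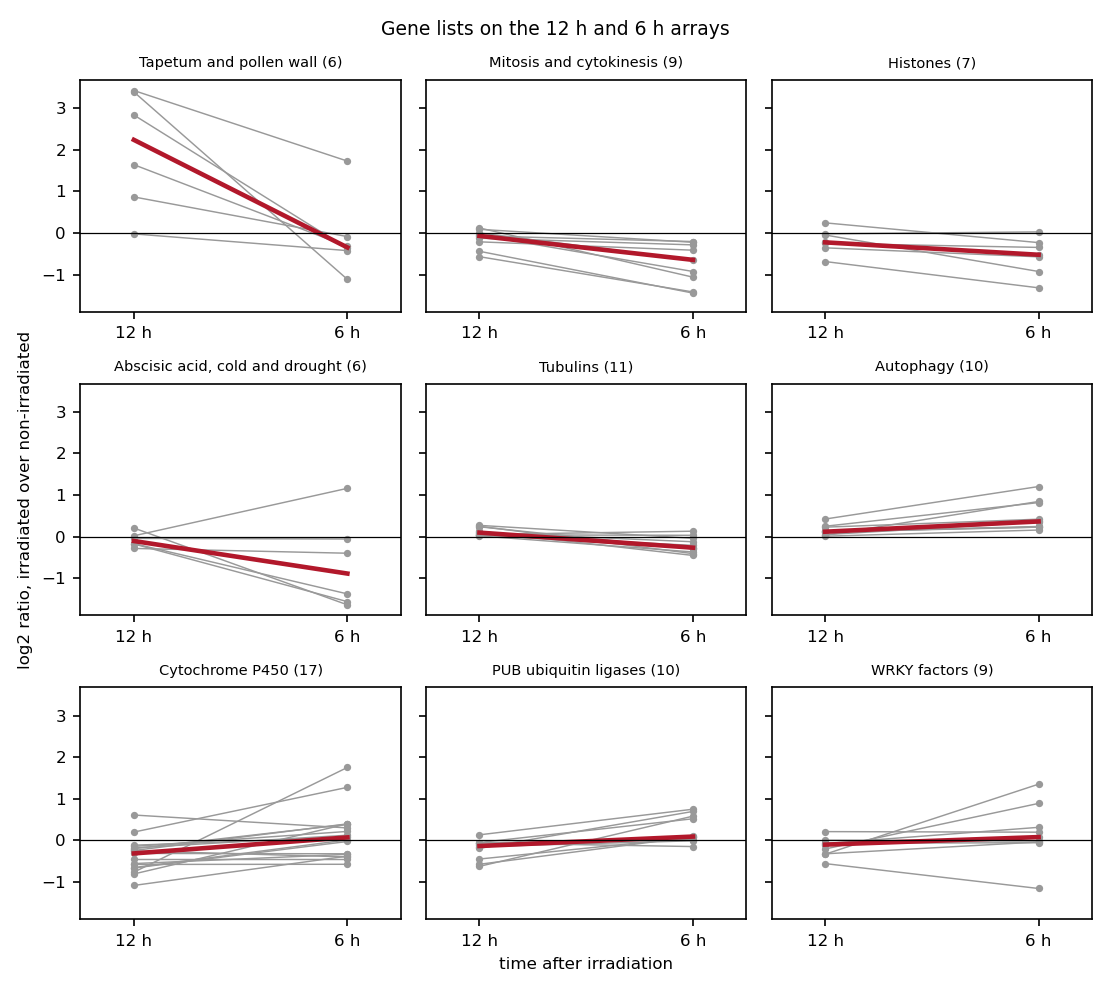
Log2 ratio of irradiated over non-irradiated wild type on the 12 h array (left) and the 6 h array (right) for the measured members of 9 lists, with the number of members in brackets; each grey line joins the 2 values of a gene and the red line joins the medians. The tapetum list has medians of 2.24 at 12 h and -0.35 at 6 h, and the mitosis list medians of -0.07 and -0.64.

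Enzyme families of secondary metabolism differed in direction. Of 17 measured cytochrome P450 genes, 15 were below 0 at 12 h, beside 48.8% of all genes, with a median of -0.31. Of the 17, 1 was at least 2-fold lower, beside 0.746% of all genes. At 6 h the median of the 17 was 0.07, with 7 below 0, beside 49.7% of all genes. CYP71B23 stood at -0.76, against 1.75 at 6 h, and CYP71B29 at -0.80, against 0.40 at 6 h. All but 3 of the 17 belong to the CYP71B branch, whose members are alike in sequence, so probes may share signal and the count is not one of independent genes. The glycosyltransferases UGT lay below 0 in 28 of 45 cases, beside 48.8% of all genes, with a median of -0.10. The glutathione transferases were evenly divided, 7 above and 6 below 0, with a median of 0.02. The 4 measured flavonoid genes were all above 0, beside 51.1% of all genes. DFR, which makes leucoanthocyanidins, led them at 0.77, against -0.01 at 6 h, 2.13 in fas1-2 and 2.04 in fas2-2.

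Ubiquitin ligases of the PUB family lay below 0 at 12 h in 9 of 10 cases (median -0.13), beside 48.8% of all genes. At 6 h they lay above 0 in 8 of 10 cases (median 0.09), beside 50.1% of all genes. All but PUB23, PUB22 and PUB39 lay within the spot SD of 0.269 at 12 h. PUB23 and PUB22, which dampen immune signalling, stood at -0.62 and -0.57 at 12 h, against 0.58 and 0.09 at 6 h. The proteasome subunits RPN12a and RPN12b stood at 0.41 and 0.42. The 10 autophagy genes were all above 0, beside 51.1% of all genes, led by ATG8E (0.43), a ubiquitin-like protein of the autophagosome. All but ATG3 carry an ATG8 or APG8 symbol, so probes may share signal and the count is not one of independent genes. The median of the 10 was 0.12, against 0.37 at 6 h.

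Stress and pathogen genes that stood far from control at 6 h were nearer to it at 12 h in several cases. Of the 6 cold and drought genes, 0 were at least 2-fold from control, beside 1.65% of all genes. Their median was -0.10, against -0.88 at 6 h. COR15B stood at 0.21, against -1.63 at 6 h, and COR15A, a protein that protects chloroplast membranes from freezing, at -0.17, against -1.56. STZ, a zinc finger repressor of stress response, stood at 0.02, against 1.16. The 9 WRKY factors had a median of -0.10, with 7 below 0, beside 48.8% of all genes. WRKY53, a regulator of senescence and defence, stood at -0.33, against 1.35 at 6 h, and WRKY42 at -0.55, against -1.15. Among 5 genes of cell death and senescence, SAG29 (-0.46) and BETA-VPE (-0.44) were lowest and ALPHA-VPE (0.23) was highest, with a median of -0.22. The 6 heat shock and chaperonin genes had a median of 0.04 and reached 0.41 in HSP93-III. The 3 oxidative stress genes lay between -0.34 (GR, glutathione reductase) and -0.01. The clock genes GI (-0.25) and CCL (-0.09), which vary with the time of day, lay within 1.5-fold of control. CCR2 (AT1G80820, 0.03) was on the same list, but whether that locus is a clock gene was not checked. The time of sampling was not tested beyond GI and CCL.

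Photosynthesis and cell wall lists had medians near 0, although single members lay farther out. Of 7 photosystem and light-harvesting genes, 6 were below 0, beside 48.8% of all genes. The median of the 7 was -0.23, against -0.13 at 6 h. PSBW, a small photosystem II subunit, was lowest at -0.76, and LHCB4.3 alone was above 0, at 0.33. The mesophyll genes PRK (-0.35), LHCB4.1 (-0.31) and RCA (-0.17), of carbon fixation and light harvesting, were below 0 at both times. Their median at 12 h was -0.31. Expansins, which loosen cell walls, had a median of 0.02 over 15 genes, with EXPA8 at -0.99 (6 h, -1.55) and EXLB1 at -0.89 (6 h, -1.64) as the lowest. The 9 xyloglucan hydrolases and the 9 cellulose synthase-like genes had medians of 0.00 and -0.04. The 16 beta-glucosidases with a BGLU symbol had a median of -0.05 and reached 0.75 in BGLU33. ATA27, described above as a beta-glucosidase, is not among them because of its symbol, and it stood at 2.83. The 17 TBL genes had a median of 0.03 and reached 1.11 in TBL30 and 0.88 in TBL33. The 11 bZIP factors had a median of 0.04 and the 6 bHLH factors with that symbol one of 0.11. Among 11 SWEET sugar transporters the median was 0.13, from SWEET13 at -0.97 to SWEET8 at 0.87. SWEET10 (0.69, against -0.07 at 6 h) and SWEET7 (0.66, against 0.03 at 6 h) followed SWEET8.

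**Figure D4:**
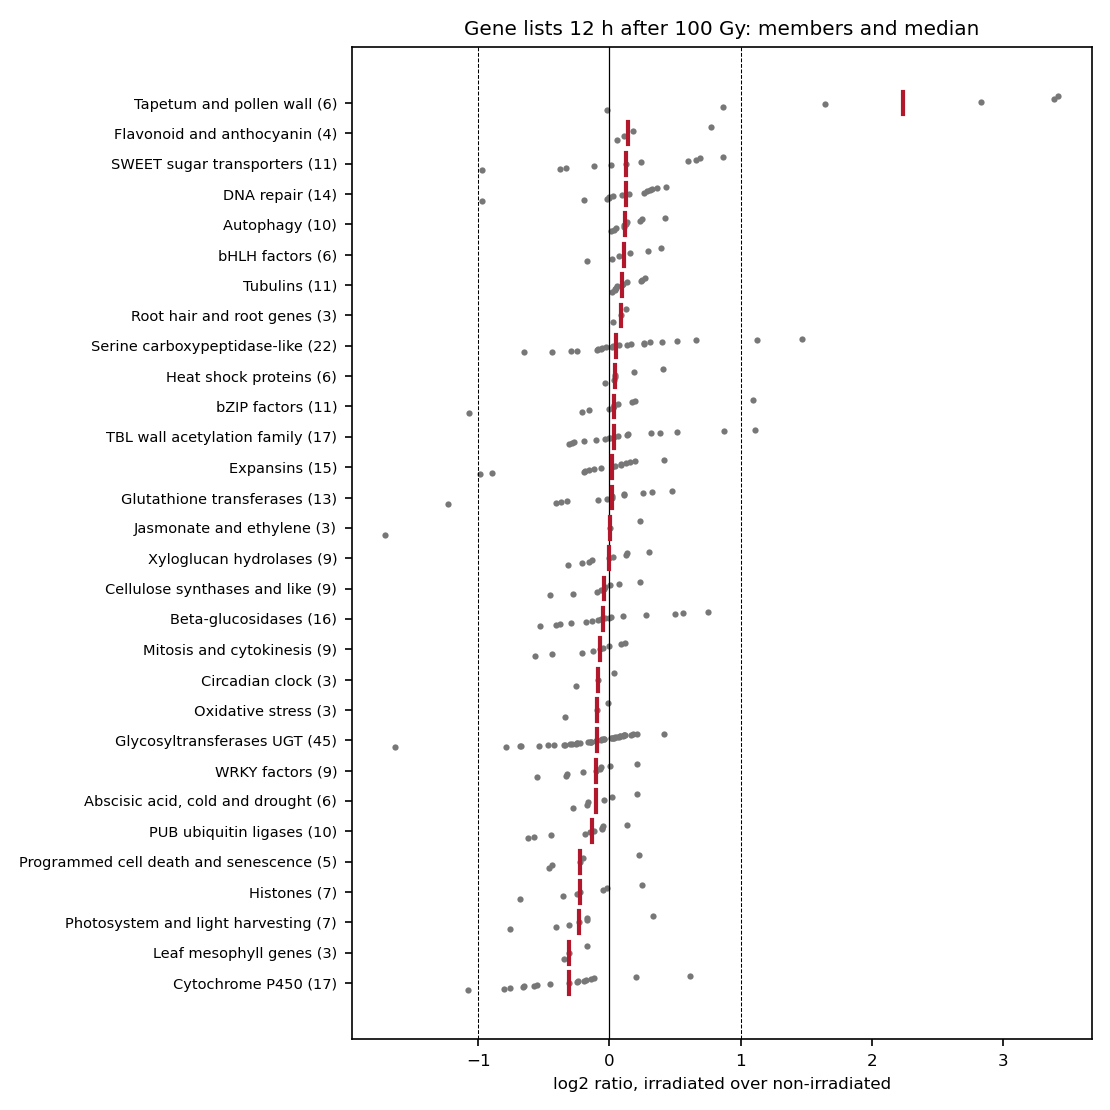
Log2 ratio of irradiated over non-irradiated wild type at 12 h for each measured member (grey points, spread vertically for legibility) of the described lists with at least 3 measured genes, with the number of members in brackets and the median as a red bar; dashed lines mark 2-fold. The tapetum and pollen wall list has a median of 2.24, and the medians of the others lie between -0.31 (cytochrome P450) and 0.15 (flavonoid genes).

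The 153 genes at least 2-fold from control were spread over all 5 chromosomes. The share at least 2-fold higher ran from 0.708% of measured genes on chromosome 3 to 1.13% on chromosome 2, and the share at least 2-fold lower from 0.593% on chromosome 4 to 0.825% on chromosome 2. Of 3426 pairs of measured genes that are direct neighbours, 2 had both genes at least 2-fold from control. AT1G10040 and AT1G10050 were both higher, at 1.07 and 1.58, as they were at 6 h (1.68 and 2.05). AT3G28500 (1.02) and AT3G28510 (-1.66) lay on opposite sides of control at 12 h, while at 6 h they stood at 0.30 and 3.08. Of 3276 measured pairs with 1 gene between them, 2 likewise had both genes at least 2-fold from control, and in each pair the genes had opposite signs. These were AT1G23560 (1.06) with AT1G23580 (-1.30), and AT4G16270 (1.72) with AT4G16260 (-1.83).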

How the data were processed

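RNA was labelled in 2 colours and hybridised to Agilent Arabidopsis 2 oligonucleotide arrays, per the labels. The authors deposited 1 ratio per feature and array, read here as log10 of red over green; Agilent Feature Extraction is the program given, per the submitters' processing notes, and background correction, dye normalization and version are not given in the sources used here. The deposited 12 h values ran from -1.75 to 1.23 with a median of -0.000444, so the array came centred. Multiplying by 3.32 gave log2 ratios, and no spot was filtered. The array has 22575 features. Its annotation, dated 2007, gives 1 gene name to 9335 of them, several to 40 and none to 13200, and only those with 1 were used. Through gene identifiers 9317 matched RefSeq's TAIR10.1 genes, from which symbols and gene order came, and 18 kept the name in the annotation. The 9253 genes include 79 with several probes, which were averaged (for 5 of these the probes differed by more than 1). Exact zeros (11 of the named features at 12 h) were kept.

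No test was made, since the condition has 1 array, and the number of arrays limits the precision. Counts used a threshold of 2-fold. The 46 gene lists, 32 of them with at least 3 measured genes, and the genes described were chosen with earlier results of these data known. Several lists are families taken by symbol, and PAC, whose symbol stands for PALE CRESS, was left out of the proteasome list after its value was seen. Genes were named as the 30 highest and 30 lowest, list members at least 2-fold from control or else the 3 farthest from 0, and the 5 largest differences between 12 h and 6 h each way; not all of these are described. List members given for their role, AT1G10040, AT3G28500, AT1G23560, AT1G23580, and ACT12, PRX52, SAL2 and LIL3:2 were chosen after their values were seen. Averaging and counting were tested on simulated data. Python 3.11.15, pandas 2.3.3 and matplotlib 3.10.9 were used. No probe or gene sequence was used here, and some genes and families are not reported here.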

Additional observations from a re-analysis of the deposited data

Results flagged for a closer look

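Of the 9253 genes, 20 were at least 2-fold from control in opposite directions at 12 h and 6 h. Of these 20, 4 lay above control at 12 h and 16 below it. Either way, 153 genes (1.65%) were at least 2-fold from control at 12 h and 267 (2.89%) at 6 h. Each time has 1 array, so the differences were not tested. Of the described genes, SHT differed by 4.50 (12 h minus 6 h), GILT by 2.92 and AT2G03740 by 2.66. The difference was -4.74 for AT3G28510, -4.53 for OCT1, -3.56 for CHI, -2.74 for AT2G39210, -2.59 for GSTF3, -2.55 for AT2G25510 and -2.44 for SAL2.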

How the results depend on the processing

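The counts of 84 genes at least 2-fold higher and 69 lower, and the share of 54.9% higher among them, came out the same when the array was centred on its median or exact zeros were left out, and as 85, 70 and 54.8% with the probe farthest from 0. With the 4 arrays scaled to 1 spread (factor 1.16 at 12 h) there were 120 higher and 115 lower genes (51.1% higher). With every feature counted, 306 were higher and 724 lower (29.7% higher). With the deposited values read as log2, 3 were higher and 1 lower (75% higher). At 1.5-fold there were 276 and 248, and at 3-fold 24 and 20. Scaling, which stretches every value alike, moved 35 of 157 named genes by more than the spot SD of 0.269. Centring turned the median of the xyloglucan hydrolases, 0.00 as reported, to the other side of 0. No paired analysis was possible because each condition has 1 array. The ratios carry no intensity, so how far signal over background limits them is unknown.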

Other observations

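Among the 13200 features without a gene name, 221 stood at least 2-fold above control and 654 at least 2-fold below it at 12 h, with values from -5.81 to 4.09. Of these features, 427 were at least 4-fold lower on all 4 arrays, which no feature with a gene name was; whether they are control spots is not given in the sources used here. Without them, 227 unnamed features (1.78%) were at least 2-fold lower at 12 h, beside 1.67% of all unnamed features that were at least 2-fold higher. Further genes with large differences between the times stood near control at 12 h. AT2G13150 was listed at exactly 0 at 12 h and at -3.92 at 6 h and AT3G44670 stood at 0.65 at 12 h and -3.02 at 6 h.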
